A study of Mus musculus with 8 samples.

Results

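Double positive thymocytes are developing T cells of the thymus that carry the coreceptors CD4 and CD8 at the same time. The measurements described here are those of the 2 arrays titled control in a study of 8 arrays, all hybridised with total RNA of mouse cells labelled as double positive thymocytes. The study also held overnight controls and cells labelled Valpha2 and Vbeta5, with 2 arrays per title in 4 groups, and its title says that the T cell receptor (TCR) was engaged with antibodies. The other 6 arrays were not used, and no comparison between groups was made.

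The control pair was chosen by title alone, with no use of measured values: 1 array is headed Data 1 and is called array 1, and the other is headed Data 2 and is called array 2. The labels give no strain, genotype, age or sex of the mice, no agent, no sorting step and no time in culture for these cells. They do not say whether the arrays came from separate animals, pools or cultures. Since the arrays differed in sex-linked genes, as given below, they were not repeat measurements of the same RNA, and how much of their spread is technical was not tested. With 2 arrays and 1 group no test was made.

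A double positive cell has a rearranged TCR beta chain gene and is rearranging its TCR alpha chain genes with the RAG recombinase, while terminal transferase adds bases at the joints. It is then tested for the fit of its receptor to self peptides on MHC molecules, and it dies, or goes on as a CD4 or CD8 single positive cell that leaves the thymus. Earlier cells without either coreceptor, called double negative, divide under the pre-TCR, Notch and interleukin 7, and most of that activity ends as the double positive stage begins.

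The deposited table gave an intensity, called signal here, for each of 12488 probe sets. Leaving out 66 control probe sets named AFFX left 12422 for ranking by mean signal. The median signal was 73.8 on array 1 and 80.3 on array 2, the 75th percentile was 291 and 306, and the highest signal was 21929 and 23274. The 100 brightest probe sets held 19.8% of the summed signal of array 1 and 20.6% of that of array 2, and the brightest 1000 held 59.6% and 58.8%. The 2 arrays shared 87 of their brightest 100 and 877 of their brightest 1000 probe sets. A rank orders signals and not RNA amounts, because probe sets bind their targets with different strength. All pairs of values below are signals in the order array 1, array 2. The arrays differed in sex-linked genes, with Xist at 7.7 and 2238 and the Y-linked Eif2s3y and Uty higher on array 1. The labels do not record sex. The main count below, of bright genes in the lists of the double positive stage, was 37 on both arrays together and 37 on each array alone.

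Gene names were taken only from the 10833 probe sets with 1 gene symbol, and the brightest probe set stood for each of 8251 named genes. A gene was called bright when it lay above the 75th percentile of all probe sets on both arrays and dim when it lay below the median on both. Of the named genes, 28.3% were bright and 38.8% were dim, and these shares are the background for every list below. Dim does not mean that a transcript was absent: no detection calls were used, and 24.7% of the signals on array 1 and 24.4% on array 2 were under 17, the offset added before taking log2.

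The 4 genes that mark the stage were all bright. Cd8a, a chain of the CD8 coreceptor, had signals of 6780.2 and 6947 and rank 72. Dntt, terminal transferase, had 7682 and 9353 and rank 40. Rag1, the recombinase subunit that cuts DNA, had 5383 and 11121 and rank 46, with rank 102 on array 1 alone and 21 on array 2 alone. Cd4, the CD4 coreceptor, had 3591 and 2362 and rank 221, with rank 172 on array 1 alone and 305 on array 2 alone. Rag1 was higher on array 2, by 1.04 on the log2(signal + 17) scale, and Cd4 was higher on array 1, whereas Cd8a was nearly level. All 4 markers of the labelled stage were thus bright on each array.

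The region around the start of 3 of these genes is shown to place them in the genome, together with that of Cd3e, which codes for a signalling chain of the TCR complex and has a match on the other strand. The windows run from 250 bases before to 50 bases after the RefSeq start in build GRCm38.p6, 5′ to 3′ on the gene's strand. Capitals mark CAGGTG, the letters of an E-box of the kind bound by the E proteins Tcf3 and Tcf12, and TGTGGT, the core letters bound by Runx factors, searched on both strands with no overlap between the motifs. CAGGTG was present in 20.2% and TGTGGT in 16.8% of all 32851 windows in the table.
Rag1, chr2:101649483-101649782, minus strand: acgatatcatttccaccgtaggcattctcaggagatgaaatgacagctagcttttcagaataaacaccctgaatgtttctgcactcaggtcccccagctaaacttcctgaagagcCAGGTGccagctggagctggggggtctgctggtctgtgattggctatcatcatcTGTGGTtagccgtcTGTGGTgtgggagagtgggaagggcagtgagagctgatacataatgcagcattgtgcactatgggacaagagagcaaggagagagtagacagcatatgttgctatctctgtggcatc
Cd3e, chr9:45009562-45009861, minus strand: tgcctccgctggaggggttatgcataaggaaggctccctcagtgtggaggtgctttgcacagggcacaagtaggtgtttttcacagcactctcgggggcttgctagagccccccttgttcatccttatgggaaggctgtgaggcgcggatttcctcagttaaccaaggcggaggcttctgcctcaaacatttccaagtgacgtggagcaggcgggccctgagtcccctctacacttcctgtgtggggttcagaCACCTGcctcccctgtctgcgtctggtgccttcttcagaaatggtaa
Dntt, chr19:41029025-41029324, plus strand: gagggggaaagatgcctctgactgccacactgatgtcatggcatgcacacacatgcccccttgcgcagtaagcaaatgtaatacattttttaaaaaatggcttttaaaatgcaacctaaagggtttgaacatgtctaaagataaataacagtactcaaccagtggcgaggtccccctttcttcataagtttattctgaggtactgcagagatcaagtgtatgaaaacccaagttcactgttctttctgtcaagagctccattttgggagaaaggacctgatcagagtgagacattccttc
Cd8a, chr6:71373177-71373476, plus strand: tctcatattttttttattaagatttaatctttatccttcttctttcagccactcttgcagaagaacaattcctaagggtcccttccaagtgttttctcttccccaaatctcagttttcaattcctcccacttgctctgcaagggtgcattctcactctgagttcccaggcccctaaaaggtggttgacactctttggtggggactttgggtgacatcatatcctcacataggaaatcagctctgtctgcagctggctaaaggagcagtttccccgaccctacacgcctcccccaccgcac
The Rag1 window held 1 CAGGTG and 2 TGTGGT, the Cd3e window held CAGGTG once, on the other strand, and neither motif was in the Dntt or Cd8a window. The Rag2 window, which is not shown, held neither motif. A match is a run of letters and not a measured binding site. Cd3e was picked for its match, so the windows shown are no sample of the stage genes. The motifs AGATAA, CCGGAAGT and TATAAA were searched as well and are not marked. Windows were found for 79.7% of the named genes and for 17 of 27 stage genes that are not transcription factors. Since fewer than 80% of either set had one, motif shares and base composition were not compared between bright and dim genes.

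All 3 coreceptor genes were bright. Cd8b1, the second CD8 chain, gave the strongest signal of the coreceptor list, 9999 and 10873, and rank 22 of all probe sets. Of the 5 genes of the TCR and CD3 complex, 4 were bright and none was dim. Cd3e had 5699.8 and 3341, Cd3g had 4728 and 3299.8, and Cd3d had 2844 and 3036. These are the CD3 chains that carry the receptor's signal into the cell, and Cd3e and Cd3g were lower on array 2 while Cd3d was nearly level. Cd247, the zeta chain of the same complex, had 973 and 1145. Ptcra, the pre-TCR alpha chain of double negative cells, had 79.4 and 182, above the median but below the 75th percentile on both arrays.

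All 3 recombination genes were bright. Rag2, the partner of Rag1, had 516 and 827, also higher on array 2. Each of Rag1, Rag2 and Dntt was higher on array 2, with a median log2 ratio of 0.66 that stayed at 0.56 and 0.67 under the other scalings tried. The 2 other Dntt probe sets were bright too, 1 at 5777 and 7067 and the other at 2533 and 2296. The second Rag1 probe set gave 86.4 and 143, far from the first in level, so the size of a signal belongs to the probe set as much as to the gene.

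Of 13 genes listed for DNA end joining, which seals the cut segments, 8 were measured, of which 4 were bright and none was dim. The bright ones were Xrcc6, Polm, Hmgb2 and Lig1. Xrcc6, the Ku70 subunit that holds the DNA ends, had 1215 and 1423. Polm, a polymerase related to terminal transferase, had 607 and 674. Hmgb2, a chromatin protein that helps the RAG complex bind DNA and was listed although it does not join ends, had 616 and 947. Lig1, a DNA ligase, had 592 and 485, with a second probe set that was dim at 11.8 and 59.1. Xrcc5, the Ku80 subunit, had 74.2 and 76.6 and Prkdc, the DNA-dependent kinase, had 114 and 105, and both were neither bright nor dim.

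Of 16 surface genes of the stage, 13 were bright and 1 was dim. Thy1, the general T lineage surface protein, had 10664 and 8793. Cd27, a co-stimulatory receptor, had 4539 and 4225. Cd6 and Cd5 are receptors that restrain TCR signals, and Cd6 had 3541 and 3383 while Cd5 had 2652 and 2803. All 4 were within 1.5-fold between the arrays. Cd24a, the heat stable antigen that is lost as thymocytes mature, had 2911 and 2967. Plxnd1, a guidance receptor of thymocytes that move to the medulla, had 3004 and 2024, and Ptprc, the CD45 phosphatase, had 1995 and 2878. Cd2, an adhesion receptor, had 2263 and 2085. The dim member was Itgae, the integrin chain CD103, at 7.4 and 7.7. Spn, which codes for CD43, had 77.1 and 119, Itga4, an integrin chain, had 71.4 and 94.3, and both were neither bright nor dim.

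Transcription factors of the stage were bright in 14 of 17 cases and dim in none. Myb, needed for survival of double positive cells and for alpha chain rearrangement, had 6912 and 8159. Satb1, a chromatin organiser of thymocytes, had 5055 and 8777. Tcf12, the E protein HEB, had 3524 and 4276. Cbfb, the partner of the Runx factors, had 3831 and 3559.6, and Sox4 had 3114 and 2924. Myb and Cbfb differed little between the arrays, and Satb1 was higher on array 2, with a log2 ratio of 0.79. Lef1, an effector of Wnt signalling, had 2413 and 1981, and of the founding members of the ETS family, Ets1 had 1526 and 1927 and Ets2 had 2011 and 2508. Among the dimmer members, Gata3, which is needed for CD4 fate, had 797 and 944 and was still bright. Tcf3, the E proteins E12 and E47, had 120.0 and 116, and Zbtb7a had 73.3 and 83.5.

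Over the 5 lists of coreceptors, the TCR and CD3 complex, recombination, surface genes and transcription factors, with end joining left out, 37 of 44 measured genes were bright and 1 was dim, and the median of their mean signals was 2228 against 118 over all named genes. The lists were drawn up for this stage with earlier results of these data known, so the count is a description and no independent check of the label. Of the 37 bright genes, 16 had more than 1 probe set, and 8 of these had a dim one as well: Myb, Cd3d, Cd247, Egr1, Ikzf1, Nfatc3, Ptprc and Ly6d. The dim probe set of Myb gave 16.8 and 22.7, and that of Cd3d gave 14 and 0.9. On array 2 the signal was higher for 31 of the 44 genes and for 4393 of all 8251 named genes. The median log2 ratio was 0.18 against 0.03 for all named genes. With the arrays at a common median it was higher for 26 of 44 and 3593 of 8251, with medians of 0.08 and -0.07. After quantile normalization it was higher for 30 of 44 and 4062 of 8251, with medians of 0.16 and -0.006.

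**Figure D1:**
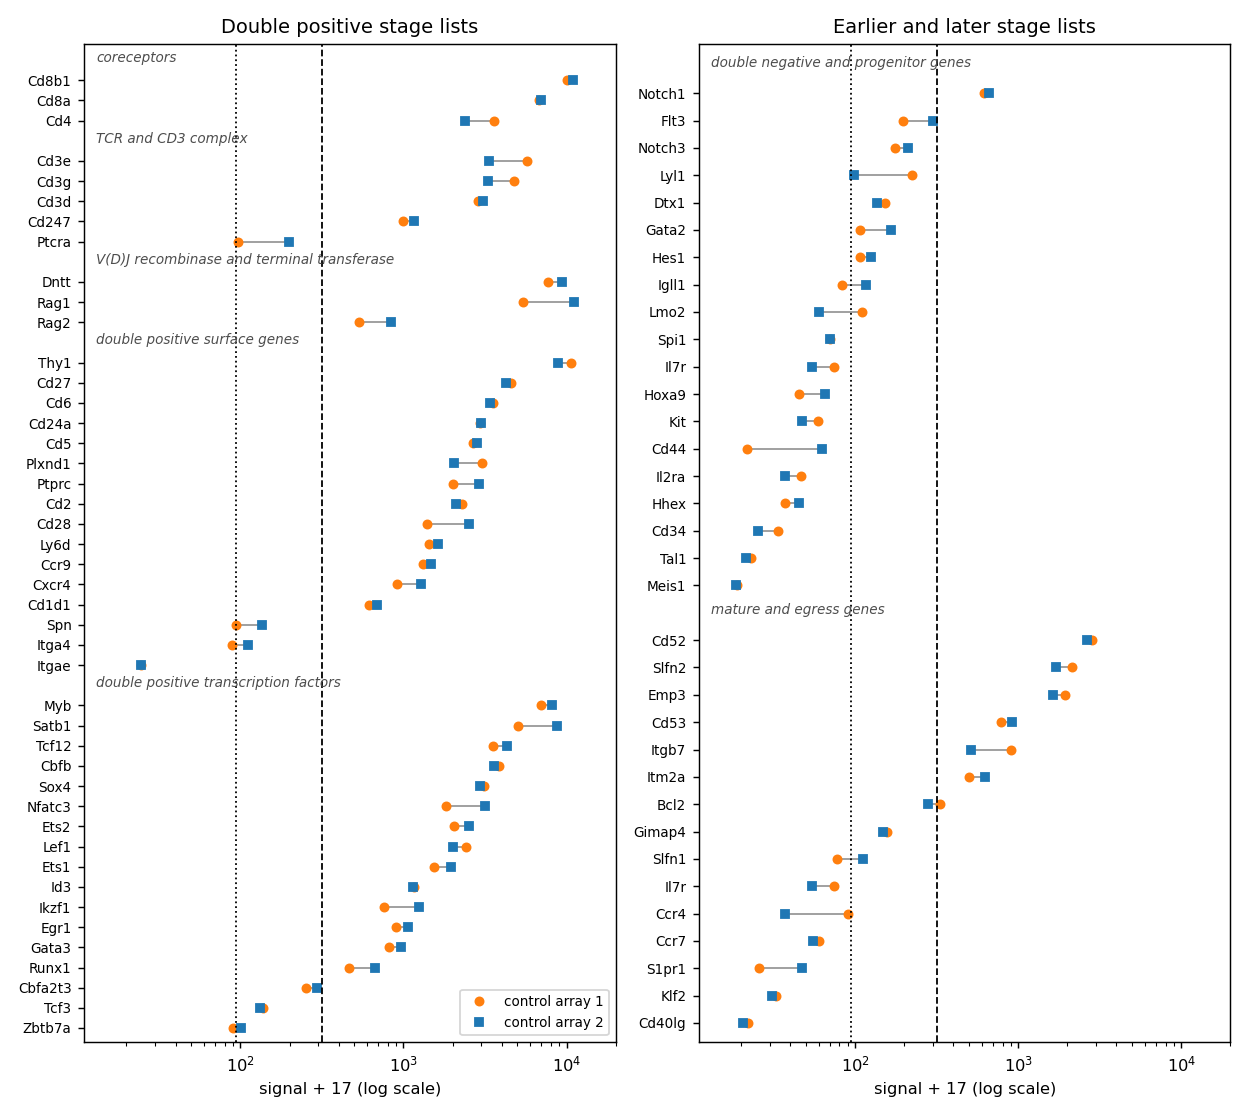
Signal plus 17 on a log axis for each gene of 5 double positive lists (left) and of the double negative and mature lists (right), with an orange circle for array 1, a blue square for array 2 and a grey line joining them. The dotted and dashed lines mark the mean over the 2 arrays of the median and of the 75th percentile of all probe sets, and 37 of the 44 genes at left were above the 75th percentile on both arrays, against 1 of 19 double negative and 6 of 15 mature genes at right.

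Of 19 genes of double negative cells and progenitors, 1 was bright and 10 were dim. The bright one was Notch1, the receptor that commits cells to the T lineage, at 598 and 640.3. Il2ra, the CD25 chain that marks late double negative cells, had 29.8 and 20.2, and Cd44, the marker of the earliest ones, had 4.7 and 45.6. Kit, the stem cell factor receptor, had 42.5 and 30.2, and Cd34 had 16.7 and 8.2. Of the targets of Notch, Hes1 had 90.1 and 108 and Dtx1 had 135 and 119, and both were neither bright nor dim. Igll1, a chain of the pre-B cell receptor, had 66.1 and 98.8.

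Of 15 genes of mature thymocytes and of exit from the thymus, 6 were bright and 6 were dim, and the median of their mean signals was 135 against 118 over all named genes. The dim share, 40%, was near the 38.8% of all named genes. The dim members included the exit genes. S1pr1, the receptor that guides cells out of the thymus, had 8.8 and 30, and Klf2, the factor that switches it on, had 15.8 and 13.9. Ccr7, the chemokine receptor of medullary cells, had 42.8 and 38.1, and Il7r, the interleukin 7 receptor chain that returns in single positive cells, had 56.7 and 37. Cd40lg, the CD40 ligand, was the dimmest with 5.1 and 3.4. The bright members were Cd52, Slfn2, Emp3, Cd53, Itgb7 and Itm2a, of which Cd52, a small surface glycoprotein of lymphocytes, was brightest at 2797 and 2632. Bcl2, the survival factor that rises in mature cells, had 316 and 262, and was below the 75th percentile only on array 2.

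None of 18 genes of lineage choice and effector function was bright and 15 were dim. Zbtb7b, the CD4 fate factor ThPOK, had 41.3 and 18.1, and Eomes, a factor of killer cells, had 52.6 and 10.8. Of the effector cytokines, Il2 had 2.3 and 2.5 and Ifng had 13.3 and 9.2. The highest of the list was Gzma, the protease granzyme A, at 183 and 224.

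The 30 brightest named genes ranged from 20979 for Trbv1 to 7502 for Tuba1c in mean signal. They held 12 ribosomal proteins, 3 TCR segments, 5 genes of the stage lists (Cd8b1, Thy1, Dntt, Rag1 and Myb), 4 of the cytoskeleton (Arhgdib, Actg1, Tubb5 and Tuba1c) and 2 tied to translation (Eef1a1 and Tpt1). The remaining 4 were Ly6e, Gnai2, Ybx1 and Jund. Of the 30 probe set names, 7 ended in f, 5 in s and 2 in r, endings explained below, and 16 were plain. Only 16 of the brightest 30 probe sets carried 1 gene symbol, since 11 carried several and 3 carried none, so this list skips many bright probe sets. Within it, 29 genes were within 1.5-fold between the arrays on the offset scale, and Rag1 was the exception.

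Trbv1, a variable segment of the TCR beta chain, was the brightest named gene at 21065 and 20894. Trbv13-2, another beta segment, had 11347 and 14892, and Trav9d-3, an alpha segment, had 12313 and 9186. The other Trbv1 probe set, which has a plain name, was dim at 4.9 and 10.4. The probe set names of the 3 bright signals end in s or f, endings the maker gave to sets that can detect related sequences, so these signals may be shared by other segments. The 5 other TCR segment genes measured were not bright. Trav6-2 had 98.9 and 103, Trav12n-1 had 88.8 and 90.5 and Trav19 had 69 and 108. The gamma segments Trgv1 and Trgv4, which belong to another T cell lineage, were dim, Trgv1 at 64.4 and 76.9 and Trgv4 at 46.8 and 31.3.

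Ly6e, a small surface protein also known as thymic shared antigen, had 16069.5 and 13749.6. Gnai2, the G protein subunit that relays chemokine signals, had 10623 and 9303. Jund, a member of the AP-1 family, had 8313 and 7328. Of the tubulins, Tubb5 had 8457 and 7593 and Tuba1c had 7891 and 7112. All but Actg1, a cytoplasmic actin at 6954 and 10438, were a little higher on array 1 in this set of 6.

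Of 31 ribosomal proteins, 21 were bright and 8 were dim. Rpl41 had 17346 and 16386, Rps28 had 12360.5 and 12811 and Rplp0 had 11392 and 13634. Of other proteins of the same particle, Rps14 had 8.5 and 13.4, Rps20 had 14.9 and 17.8 and Rps15 had 24.5 and 23.8. A protein of every ribosome is thus found at both ends of the signal range. The probe sets named Rps24 and Rpl7 were made from a sequence record they share, so these names are uncertain. Translation factors were bright in 12 of 22 cases and dim in 5. Eef1a1, which delivers tRNA to the ribosome, had 14109.8 and 17678, and Eef1g, a subunit of its exchange factor, had 4.8 and 8.3.

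The electron transport chain and ATP synthase were bright in 47 of 67 cases and dim in 9. Cox6a1 had 4151 and 3953, Atp5a1 had 3478 and 4101 and Ndufb5 had 3551 and 3496, each from a different complex. Cox7a1 and Cox6a2, forms of cytochrome oxidase subunits found in heart and skeletal muscle, were dim, Cox7a1 at 33.7 and 20.6 and Cox6a2 at 51 and 20.1. Cox8a, a form found in most tissues, was the dimmest with 16.6 and 9.1. All 14 genes of the proteasome core were bright, from Psma6 at 3091 and 3608 to Psma1 at 326 and 354. Over the 4 lists of ribosome, translation, electron transport and proteasome, which also hold such tissue forms, 94 of 134 genes were bright and 22 (16.4%) were dim.

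Of 17 genes of glycolysis, 9 were bright and 4 were dim. Hk1, the first enzyme of the pathway, had 4572 and 6972. Ldha, which makes lactate, had 3219 and 2745, and Pkm, pyruvate kinase, had 3247 and 2217. The 4 dim genes were Slc2a1 at 36.1 and 19, the glucose carrier that rises in activated T cells, Hk2 at 14.5 and 32.4, Aldoc at 7.6 and 13.3 and the testis enzyme Ldhc at 1.8 and 2.2.

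Genes of proliferation were bright as a group. In DNA replication, 21 of 28 genes were bright and 1 was dim. Pcna, the sliding clamp of the polymerases, had 2804 and 2655, Rrm2, the ribonucleotide reductase subunit of dividing cells, had 1719 and 2136, and Mcm5, a subunit of the replicative helicase, had 1807 and 2101. The arrays were within 1.5-fold for these 3. The dim member, Mcm6, had 3.5 and 10.8 although it belongs to the same helicase as Mcm5. In mitosis, 20 of 25 genes were bright and 1, Cenpe, a kinetochore motor, was dim at 15.4 and 3.2. Ccnb2, a mitotic cyclin, had 2353 and 2724, Cdc20, which triggers anaphase, had 1487 and 1357, and Mki67, the marker of cycling cells, had 1095 and 1289. In a bulk sample a larger number of dividing cells and more RNA per dividing cell cannot be told apart, and the same holds for every cell type below.

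Of 17 histone and chromatin genes, 16 were bright and none was dim. Hmgn1, a nucleosome binding protein, had 4752 and 4789, and H2ax, the histone variant marked at DNA breaks, had 3567 and 3065. Dnmt1, which maintains DNA methylation, had 1539.8 and 1859.8, and Ezh2, the enzyme that methylates lysine on histone H3, had 1658 and 1261. The arrays were within 1.5-fold for all 4.

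Proximal TCR signalling was bright in 16 of 26 cases and dim in 2. Zap70, the kinase that binds the CD3 chains, had 6026 and 4226. Dgka, which removes diacylglycerol, had 3309 and 2948, and Lcp2, the adaptor SLP-76, had 2755 and 2341. Ptpn22, a phosphatase that restrains the pathway, had 2294 and 2272, and Vav1, an exchange factor, had 1622 and 1412. Csk, the kinase that holds Lck inactive, differed most among the bright members, at 1471 and 628, a log2 ratio of -1.21. Lat, the adaptor that Zap70 phosphorylates, had 153 and 260.4, neither bright nor dim. The 2 dim members were Nck1 and Grap2, both adaptors, with Nck1 at 45.7 and 35.8 and Grap2 at 52.7 and 13.3.

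Of 23 genes that respond early to stimulation, 10 were bright and 7 were dim. Btg2, which restrains cell growth, had 5308 and 3874, and Nfkbia, the inhibitor of NF-kappaB, had 2877 and 2329. Egr1, a factor induced by TCR signals, had 886 and 1043. Fos had 48.7 and 64.1, Jun had 50.5 and 43.7 and Myc had 54.2 and 65.3, and all 3 of these growth-linked factors were dim. Bright and dim members were thus found among genes that follow the same stimuli.

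Of 23 genes of survival and death, 9 were bright and 3 were dim. Bcl2l1, which codes for Bcl-xL, a survival factor of double positive cells, had 1557 and 1385. A second Bcl2l1 probe set was dim at 7.8 and 9.3. Mcl1, another member of the same family, had 949 and 1358. Bcl2l11, which codes for the death factor Bim, had 882 and 885, nearly equal on the arrays. The dim members were Bik at 64 and 42.2, Diablo at 10 and 8.3 and Casp1 at 13 and 3.3.

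The actin cytoskeleton was bright in 22 of 27 cases and dim in 3. Cfl1, cofilin, had 7639 and 5545, Coro1a, an actin regulator of blood cells, had 5374 and 3979, and Rac2, the Rac GTPase of blood cells, had 6264 and 5465. Only 8 of the 27 genes were higher on array 2, and the median log2 ratio was -0.20 as deposited, -0.17 after quantile normalization and -0.30 with a common median. As deposited, 4393 of all 8251 named genes were higher on array 2, and their medians were 0.03, -0.006 and -0.07 in the same order. The 3 dim members were Myl6, Cap1 and Capg, of which Myl6, a light chain of nonmuscle myosin, had 56.2 and 42.1.

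MHC class I genes and their loading factors were bright in 11 of 15 cases and dim in 1. H2-D1, a classical class I heavy chain, had 3262 and 3630.1, from a probe set of the f kind that may detect related class I genes. B2m, the light chain, had 2581 and 2864, and Psmb8, a subunit of the immunoproteasome, had 3574 and 3051. Calr, the chaperone calreticulin, was dim at 1.6 and 13.7. Of 23 chaperone genes, 17 were bright and 2 were dim. Hsp90aa1 had 2829.6 and 2853 and Hspd1, a mitochondrial chaperone, had 2063 and 2011, and the dim members were the stress-induced Hspa1a at 36.8 and 23.7 and Hspa1b at 19.5 and 19.6.

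Cytokine genes were the opposite case, with 3 of 35 bright and 30 dim. Ltb, lymphotoxin beta, a ligand needed for the thymic medulla, had 3952 and 2941. Il16, a cytokine made by lymphocytes, had 1238 and 1161. Tgfb1 had 998 and 439.7, a log2 ratio of -1.15. Among the receptors and Stat factors that respond to cytokines, 11 of 33 were bright and 13 were dim. These shares, 33.3% and 39.4%, were near the 28.3% and 38.8% of all named genes. Il4ra, the interleukin 4 receptor chain, had 1591 and 1270.3, Ifngr1, an interferon gamma receptor chain, had 1229 and 1032, and Jak1, a kinase they share, had 1687 and 1394. The dim members included Il2rb at 9.6 and 16.3, Tgfbr2 at 3.3 and 10.3 and Il5ra at 1.6 and 0.9.

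Markers of other cells of the thymus were mostly dim: over 8 lists with 52 measured genes, 2 were bright and 34 were dim, and the median of the mean signals was 32.8. Their part in the other signals was not tested. Among 7 B cell genes 1 was bright, 2 were dim and 4 were neither. The dim share, 28.6%, was below the 38.8% of all named genes. The bright one was Ighm, the constant region of IgM, at 4490.0 and 3483, with a second bright probe set at 2619.6 and 2475. Of its 16 probe sets 2 were bright, 13 were dim and 1 was neither. Of the signalling chains of the B cell receptor, Cd79a had 19.4 and 103 and Cd79b had 149 and 193, and Cd22, an inhibitory receptor of B cells, had 8.5 and 9.1. Of the 27 immunoglobulin locus genes measured, Ighm was the only bright one and 15 were dim.

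None of 10 macrophage genes was bright and 7 were dim. Lyz2, lysozyme, had 5.2 and 2.4, and the highest was Cd14, part of the receptor for bacterial lipopolysaccharide, at 169.9 and 195. None of 5 genes of dendritic cells and MHC class II was bright and 2 were dim, H2-Aa at 10 and 12.5 and H2-Ab1 at 15.9 and 18.7. The other 3 were neither, and the dim share, 40%, was near the 38.8% of all named genes. Of 7 granulocyte genes 6 were dim, and S100a9 had 2.5 and 10.2. None of 8 thymic epithelial genes was bright and 7 were dim, with Foxn1, the factor that defines these cells, at 9.7 and 17.5. Of 6 NK cell genes 5 were dim, with Ncr1 at 3.7 and 3.9. Of 3 erythroid genes 2 were dim, and Hba-a1, an alpha globin, had 338 and 90.8, higher on array 1.

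Of 6 genes of fibroblasts and endothelium, 1 was bright and 3 were dim. The bright one was Col1a2, a collagen chain, at 554 and 426. Its other probe set gave 5.3 and 11.4, and of other genes of these cells Col3a1 had 6.9 and 34.7 and Sparc had 21.3 and 5.4. The brighter Col1a2 probe set ends in r, an ending given where the maker's usual rules for choosing probes could not be met. The probe sets given above for Hmgb2 and Tubb5 end in r too.

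Genes that mark other tissues, and the Hox genes, made up 8 further lists. Of their 147 measured genes, 3 were bright and 114 were dim, and the median of the mean signals was 25.7. None of 18 liver genes was bright, and Alb, serum albumin, had 13.2 and 57. None of 12 kidney and lung genes was bright and all 12 were dim. Among 31 Hox genes, which set position along the body axis, none was bright and 24 were dim. Hoxa4, the highest of them at 706 and 271, was measured by an r probe set.

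The 3 bright exceptions were Mbp, Pvalb and Sct. Mbp, myelin basic protein, had 873 and 856, with a second probe set at 48.6 and 50.3. Pvalb, a calcium buffer of muscle and neurons, had 857 and 582 on a probe set that ends in i, an ending for sets with fewer probes than usual, and 4.6 and 3.8 on its other one. Sct, the gut hormone secretin, had 542 and 534, with 1 other probe set at 450.1 and 411 and another at 10.6 and 6.6. In Mbp and Pvalb a second probe set of the gene was thus dim on both arrays, and in Sct 1 of 3 was, as in 8 of the 16 bright stage genes with more than 1 probe set.

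**Figure D2:**
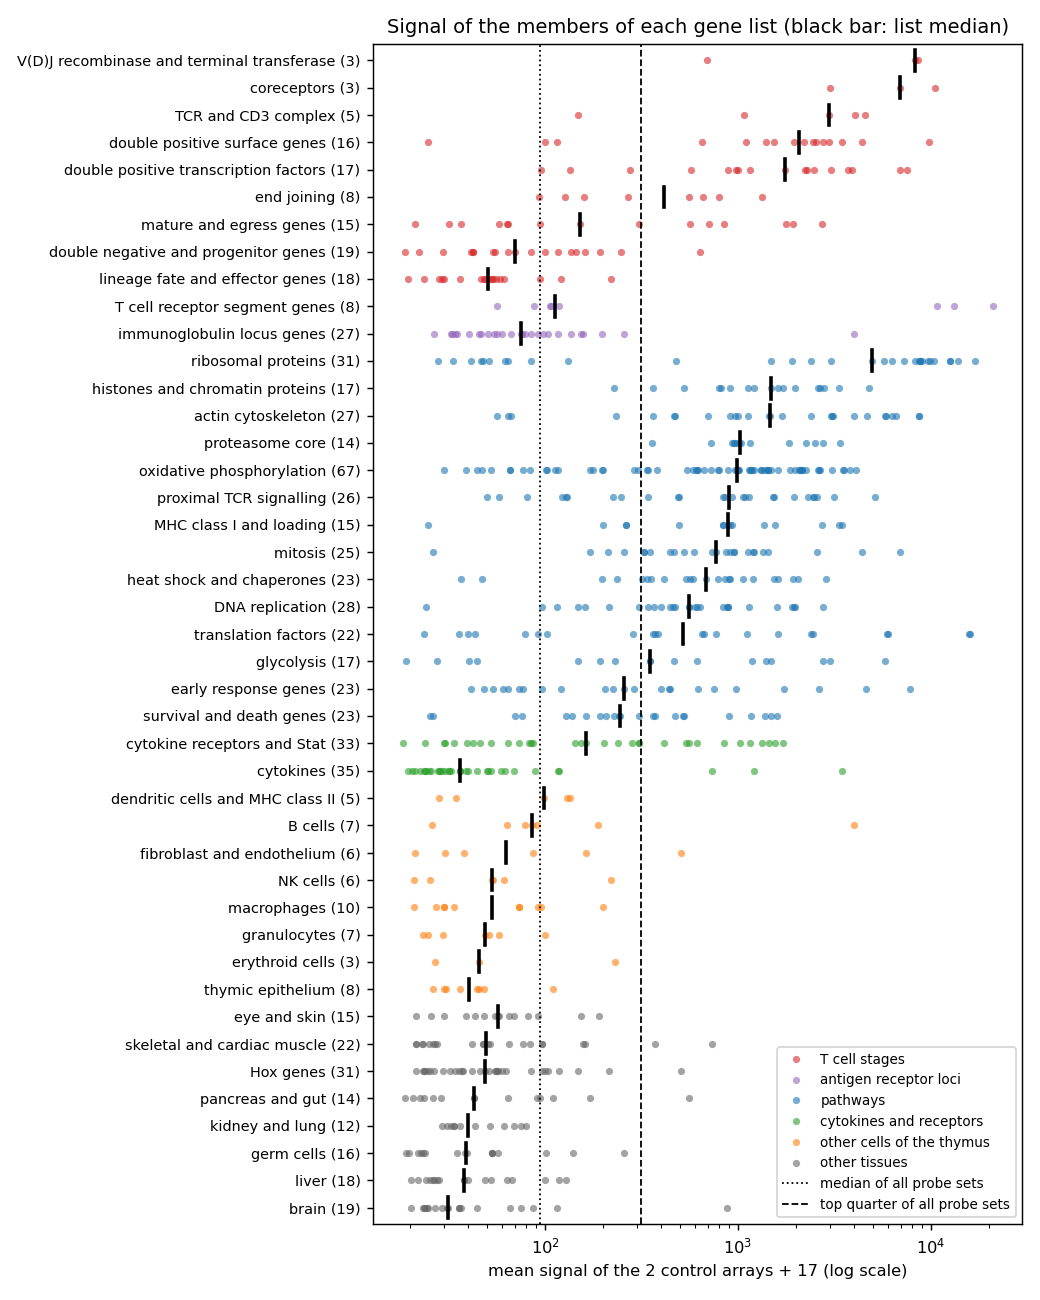
Mean signal of the 2 arrays plus 17 on a log axis for every measured member of each list (1 point per gene, the number of genes in brackets), with a black bar at the list's median and colours by kind of list. The lists of recombination and coreceptor genes sat furthest to the right and the 8 lists of other tissues lay mostly left of the dotted line, the median of all probe sets, with 3 of 147 genes bright.

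Genes with several probe sets gave a measure of how far 1 signal can be trusted. For 2073 genes with 2 or more probe sets, the median ratio of the brightest to the dimmest was 2.85 after adding 17 to each signal, and in 17.4% of genes it was 10 or more. Of 743 such genes with any bright probe set, 135 had only bright ones and 317 had a dim one as well. Among bright genes named above, Mki67 had a dim probe set at 52.7 and 45.5, and Mcm5 had one at 50.3 and 40.1. Csk, Dnmt1, H2-D1, Hsp90aa1, Il4ra, Itgb7, Ly6e, Ptpn22, Rpl7 and Rps24 had a dim probe set too. Actb, a cytoplasmic actin, had 1686 and 526 on the brighter of its 2 ranked probe sets and 193 and 419.7 on the other, while the 3 AFFX control probe sets for actin gave between 15857 and 19855. Probe sets made for the opposite strand of Actb and Gapdh, which should not bind their RNA, gave between 7.4 and 103, with a median of 71.

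RNA quality was judged from control probe sets at both ends of 2 transcripts. The log2 ratio of the 3′ to the 5′ signal was -0.09 on array 1 and -0.28 on array 2 for Gapdh, and 0.0042 and 0.13 for Actb. The ends were therefore within 1.5-fold of each other on both arrays.

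The arrays were compared over 8281 probe sets, after the dimmest 33.3% by mean signal were left out. Across them, Pearson's r of log2(signal + 17) was 0.952 and Spearman's rank correlation was 0.944, as a description, since probe sets are not independent replicates. The median fold between the arrays was 1.22, and the SD of the log2 ratio was 0.52. On array 2, 274 probe sets (3.31%) were 2-fold or more higher, and on array 1, 255 (3.08%). This split depended on the scaling: with the arrays brought to a common median it was 199 and 321, and after quantile normalization 222 and 293.

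The spread was smallest among the brightest probe sets. In the brightest 10% the median coefficient of variation (CV) of the 2 signals was 10.8%, and 1.45% of probe sets were 2-fold apart. In the seventh 10% from the top, with mean signals from 24.8 to 43.4, the CV was 35.1% and 18.9% were 2-fold apart. In the lowest 10% none was, because the offset of 17 exceeds these signals. In the brighter 50% of the probe sets compared, 1.68% with plain names were 2-fold apart, against 6.29% of those ending in r and 4.84% of those ending in i.

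**Figure D3:**
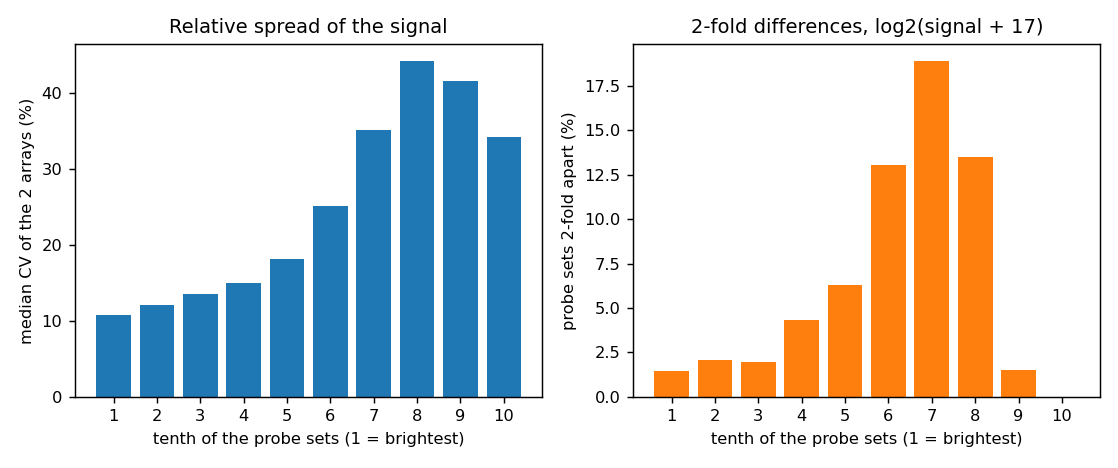
Median CV of the 2 signals (left, in percent) and percent of probe sets 2-fold or more apart on the log2(signal + 17) scale (right) in 10 equal bands of mean signal, 1 being the brightest. The CV rose from 10.8% in band 1 to 44.2% in band 8, and the share 2-fold apart peaked at 18.9% in band 7.

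Of 2852 bright probe sets, 33 (1.16%) were 2-fold or more apart, 14 higher on array 2 and 19 higher on array 1. The share was 6.39% over all 8281 compared. Bright needs a high signal on both arrays, so probe sets high on 1 array alone, such as that of Xist, were left out. In the brightest 25% by mean signal, 57 of 3105 (1.84%) were 2-fold apart, 33 higher on array 2 and 24 higher on array 1. Among the bright probe sets that were 2-fold apart, Rag1 was the brightest. Higher on array 2 were also Med1, a subunit of the Mediator complex, at 299 and 1023, Suz12, a subunit of Polycomb complex 2, at 298 and 975, and Lmnb1, lamin B1, at 589 and 1485. Ddx6, an RNA helicase of messenger decay, was 2-fold or more higher on array 2 in 2 probe sets, 1 at 662 and 1966 and the other at 689 and 1429.7. The next brightest Ddx6 probe set after the first was less than 2-fold apart, with a log2 ratio of 0.49. Higher on array 1 were Klf13, a Krueppel-like factor, at 1538 and 544, Psmb2, a proteasome subunit, at 1427 and 558, and Cd99, a surface protein, at 1628 and 661. The other Klf13 probe set was also bright and went the other way, at 926 and 1109.9. The brighter ranked probe set of Actb was higher on array 1, with a log2 ratio of -1.65, while its other ranked probe set had 1.06 and all 3 actin control probe sets were higher on array 2.

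Among named genes, the largest difference in each direction was in a sex-linked gene. Xist, the RNA that silences an X chromosome in female cells, had 7.7 and 2238, a log2 ratio of 6.51. The Y-linked genes were higher on array 1: Eif2s3y had 290.0 and 18.5, Uty had 58.5 and 2.9 and Kdm5d had 14.9 and 5.2. The log2 ratios of Eif2s3y and Uty were -3.11 and -1.92. The labels give no sex for the mice, so the arrays differ in these genes beyond what their titles record, and any other difference between the arrays cannot be told apart from this one.

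**Figure D4:**
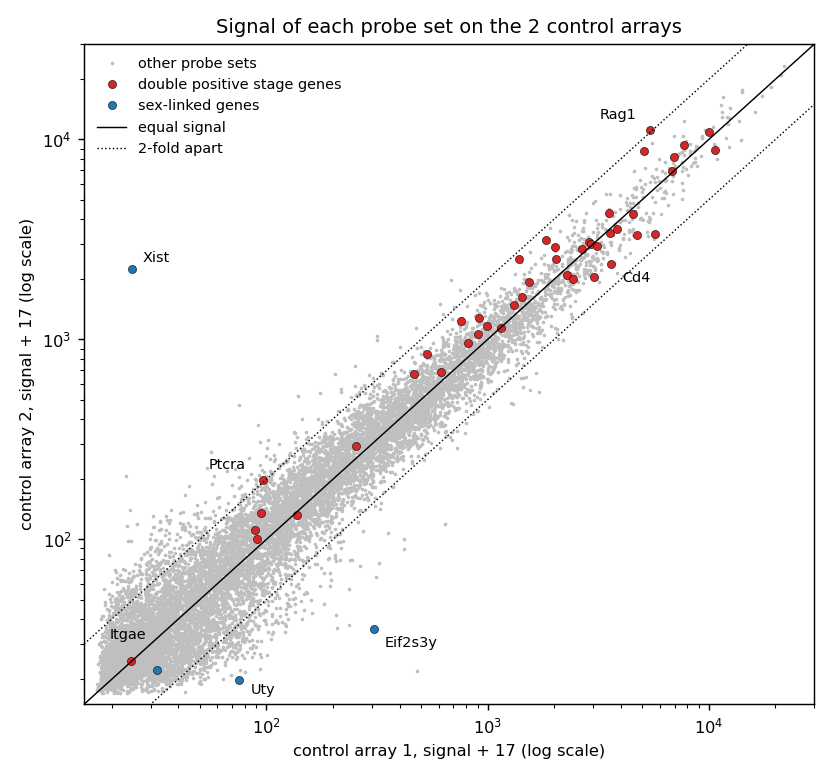
Signal plus 17 of each of 12422 probe sets on array 1 (x axis) and array 2 (y axis), both on log axes, with genes of the 5 double positive lists in red, sex-linked genes in blue, the line of equal signal and dotted lines at 2-fold. Most probe sets lay between the dotted lines, Xist lay far above them, and Eif2s3y and Uty lay far below.

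The other large differences were taken over all compared probe sets of named genes, so a gene could enter by a probe set that is not its brightest. Toward array 2 these were AI506816, a gene known by its record only, with a log2 ratio of 3.17, then Mprip, Cmah, Ackr4, Emc10, Tug1, Adgrg1, Rfc1 and Nr2c2ap. Toward array 1 they were Tmem129 with -2.66, then Snhg6, Fmc1, Pnmt, Scx, Clcn7, Uty, Sqor and Fmr1nb. Of the 10 largest in each direction, sex-linked genes included, 6 toward array 2 and 3 toward array 1 came from a dimmer probe set of the gene. Mprip had 7.1 and 123 on the probe set that differed and 3743 and 3742 on its brighter one. AI506816 had 6.1 and 191 on the probe set that differed, against 311 and 378 on the brighter. Tmem129 had 219 and 20.4, against 290.5 and 297 on the brighter. The brighter probe set was thus nearly level in Mprip and Tmem129. Snhg6, a small nucleolar RNA host gene, had 621 and 102 on its brighter probe set. By name, 5 toward array 2 and 4 toward array 1 were measured by probe sets whose names end in f, s, r or i.

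Where 2 probe sets of 1 gene were both compared, their array differences were seldom alike. Over 1089 genes, the log2 ratio of the brightest probe set and that of the next correlated with Pearson's r = 0.10 and Spearman's rank correlation of 0.13 across genes, as a description. Of 40 genes whose brightest probe set was 2-fold apart, 5 had the other 2-fold apart in the same direction: Suz12, Cx3cl1 and Igkv14-111 toward array 2, and Cd276 and Lyl1 toward array 1. Suz12 had log2 ratios of 1.65 and 1.21, and Lyl1, a factor of early progenitors, had -1.18 and -1.33. In 202 genes with 2 bright probe sets, r was 0.30 and the rank correlation 0.34, and 118 (58.4%) differed in the same direction.

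**Figure D5:**
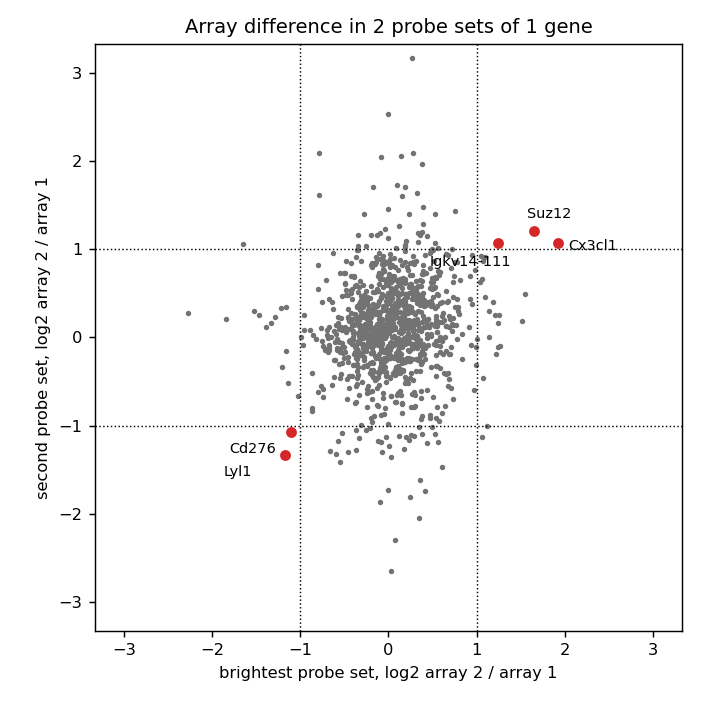
Log2 ratio of array 2 over array 1 for the brightest (x axis) and the next brightest (y axis) probe set of 1089 genes, with dotted lines at 2-fold and red points for genes past 2-fold the same way in both. The points formed a cloud about 0 with r = 0.10, and 5 genes were marked.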

How the data were processed

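Total RNA of double positive thymocytes was measured on oligonucleotide arrays. The authors deposited 1 table with a linear intensity per probe set and array, normalized per the labels. How it was normalized, and with which software and scaling target, is not given in the sources used here. With the highest and lowest signals trimmed, the mean over all probe sets was 249.95 on array 1 and 249.95 on array 2. The arrays thus had a common trimmed mean as deposited. The intensities were used as deposited for ranks and levels, and log2(signal + 17) for ratios, which understates differences of dim probe sets. The number of arrays, 2, limits the precision.

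Gene symbols came from the platform annotation and were brought up to date by gene identifier against RefSeq names of build GRCm38.p6, in which 10817 of the 10833 probe sets with 1 symbol were found. Another 396 probe sets had several symbols and 1193 had none, and these were never named. Each gene was represented by its probe set with the highest mean, except in the list of largest array differences, which took every probe set with 1 symbol. Control probe sets (66) were left out of ranks.

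Named were the 30 brightest genes, the stage and cell markers, up to 8 brightest and 4 dimmest members of a list, and the 10 largest array differences each way. Actb, Cd276, Cd44, Cd99, Cox6a2, Csk, Cx3cl1, Ddx6, Eomes, Ets1, Ezh2, Fos, Gata3, Il2ra, Il7r, Jun, Kit, Klf13, Lat, Lmnb1, Med1, Myc, Suz12 and Zbtb7b were named outside that rule, after their values were seen. The members and lists were chosen with earlier results of these data known, and the patterns for TCR, immunoglobulin and ribosomal gene names were corrected after the table was seen. No test was run. The calculation was tested on simulated data. Python 3.11.15, pandas 2.3.3, NumPy 2.4.6 and SciPy 1.17.1 were used.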

Additional observations from a re-analysis of the deposited data

How the results depend on the processing

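The 30 brightest named genes were ranked again by the geometric mean, by the lower of the 2 signals and by each array alone, and between 27 and 30 of them stayed in the list. Of the genes of the double positive lists, 37 were bright; with the top 10% or the top 33.3% as the limit these were 32 and 38, where 10.6% and 37.6% of all named genes were bright, and the count was 37 without either array. Of the 147 genes of other tissues, 114 were dim, and 68 with the lower 33.3% as the limit, where 21.4% of all named genes were dim; it was 121 without array 1 and 120 without array 2. The 529 probe sets that were 2-fold apart became 895 with a floor of 17 in place of the offset and 200 with the dimmest 50% left out, where 6211 were compared. The correlation of the arrays, 0.952, became 0.945 with an offset of 8.5, 0.967 with no filter on dim probe sets, 0.951 with the dimmest 50% left out, and 0.954 without probe sets whose names end in r or i, an alternative chosen after seeing the data. For these values the cause was not tested. Of 396 counts of bright or dim list members recomputed under these settings, 333 stayed within 1.5 times.

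No paired analysis was possible because the values come from 1 group and from no test. Dim signals have no measure of background of their own beyond the opposite-strand control probe sets, 2 arrays give only the smallest measure of spread, and the signal cannot show whether a transcript was absent.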
